A study of Homo sapiens with 6 samples.

Results

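The transcripts of 37 genes that choose which exons enter a messenger RNA were followed in MDA-MB-231 cells, a human triple-negative breast cancer line. They comprise 11 SR proteins, the 2 TRA2 proteins, 20 hnRNPs and the 4 CLK kinases, and were taken by symbol from 2 deposited tables of 41471 and 34157 gene symbols. All 37 were found in both tables and all 37 passed the filter on low counts. In the knockdown experiment, cells were stably transfected through lentivirus with CDK16-sh1, CDK16-sh2 or a scramble shRNA, and in the rebastinib (Reb) experiment they received DMSO or Reb at 1 μM or 5 μM for 48 h. CDK16 is an atypical cyclin-dependent kinase, and Reb is a kinase inhibitor that the study used against it. Each of the 6 conditions had 1 library, so no difference below has a replicate check, and any batch cannot be told apart from a condition. Both hairpins were compared with the same scramble library and both doses with the same DMSO library. The knockdown cells carried a GFP vector and were sorted as stable lines, the scramble line included.

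SR proteins bind short sequences in exons through an RNA recognition motif, recruit the spliceosome through a domain rich in arginine and serine, and mostly favour the inclusion of an exon. hnRNPs coat nascent transcripts and often favour skipping, while TRA2A and TRA2B act as SR-like activators. CLK kinases phosphorylate the arginine-serine domain of SR proteins in the nucleus and release them from nuclear speckles, where they are stored. Many of these genes set their own level by splicing a poison exon or a retained intron into their transcript, which then stays in the nucleus or is degraded by nonsense-mediated decay.

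Total counts were between 25838443 and 50303269, so the intervals of most single genes were narrow, although they cover counting error alone. CDK16 itself was lower with both hairpins, with log2 fold changes of -1.52 and -1.82. It stood at -0.14 and 0.27 with Reb at 1 μM and 5 μM. Its counts were 4996 with DMSO, 4609 at 1 μM and 2797 at 5 μM, in libraries of 50303269, 49367654 and 37655548 counts. The sign of its change at 5 μM therefore depends on how the libraries are scaled. The 5 μM library stood apart from the other libraries of its experiment. Mitochondrial transcripts took 16.4% of its counts against 7.19% with DMSO, and the 100 most abundant genes took 35.3% against 24.3%. CDK16-sh2 also had a mitochondrial share of 16.2% against 11.3% with scramble. Of the markers of the line, VIM, CD44, AXL and CAV1 were present in each library, CDH2 was at or near 0, ESR1, PGR and CDH1 were at or near 0, and KRT19, listed here as low, was at 142 RPKM with scramble and 73.9 with DMSO. Among markers of other cell types, PTPRC, CD3E and ALB were at or near 0, while CD68 was between 106 and 235 RPKM and PECAM1 had 154, 53 and 4 counts with DMSO, 1 μM and 5 μM.

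Levels are compared between genes only as RPKM, which divides a count by the gene's length and the library's total. Fold changes are against the library's own control, on the log2 scale, from counts scaled by TMM (a method that assumes that most genes keep their level), and a gene counts as past the threshold at 2-fold, a log2 fold change of 1 or -1. The hnRNPs were the most abundant group. Their RPKM values summed to 2629 with scramble and 2847 with DMSO, against 584 and 645 for the SR proteins, 35.6 and 29.8 for the TRA2 proteins and 24.2 and 24.5 for the CLK kinases. HNRNPA2B1, which binds and sorts RNA, led with scramble at 409.9 RPKM, and HNRNPA1, the archetypal splicing repressor, led with DMSO at 489.6 RPKM. CLK4 was the lowest of the 37 in both controls, at 1.51 and 1.84 RPKM.

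At 5 μM Reb, 7 of the 37 genes were at least 2-fold higher and 7 at least 2-fold lower than with DMSO. CLK1, CLK4, TRA2A, TRA2B, SRSF5, SRSF10 and HNRNPH2 were higher. HNRNPA1, HNRNPD, HNRNPDL, HNRNPUL1, SRSF3, SRSF4 and SRSF9 were lower. Scaling by library totals in place of TMM shifted the median of the genes tested at 5 μM by -0.68 on the log2 scale, so that folds at this dose depend on the scaling by over 1.5 times, and gave 5 higher and 15 lower members, beside 1835 higher and 6792 lower of all genes tested. The whole library was widely spread, since 23.6% of the 15655 genes tested were at least 2-fold higher and 27.2% at least 2-fold lower, and the 18.9% of the 37 genes on each side is under both shares. In these bulk libraries fewer cells with a transcript and less of it per cell cannot be told apart. At 1 μM no member passed 2-fold in either direction, where 1.92% of all genes were lower and 1.28% higher. With CDK16-sh1, 1 member was lower (HNRNPH2) and 0 were higher, against 6.86% and 4.33% of the 15295 genes tested. With CDK16-sh2, 1 was lower (HNRNPA2B1) and 1 higher (HNRNPA3), against 7.62% and 2.2%.

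**Figure D1:**
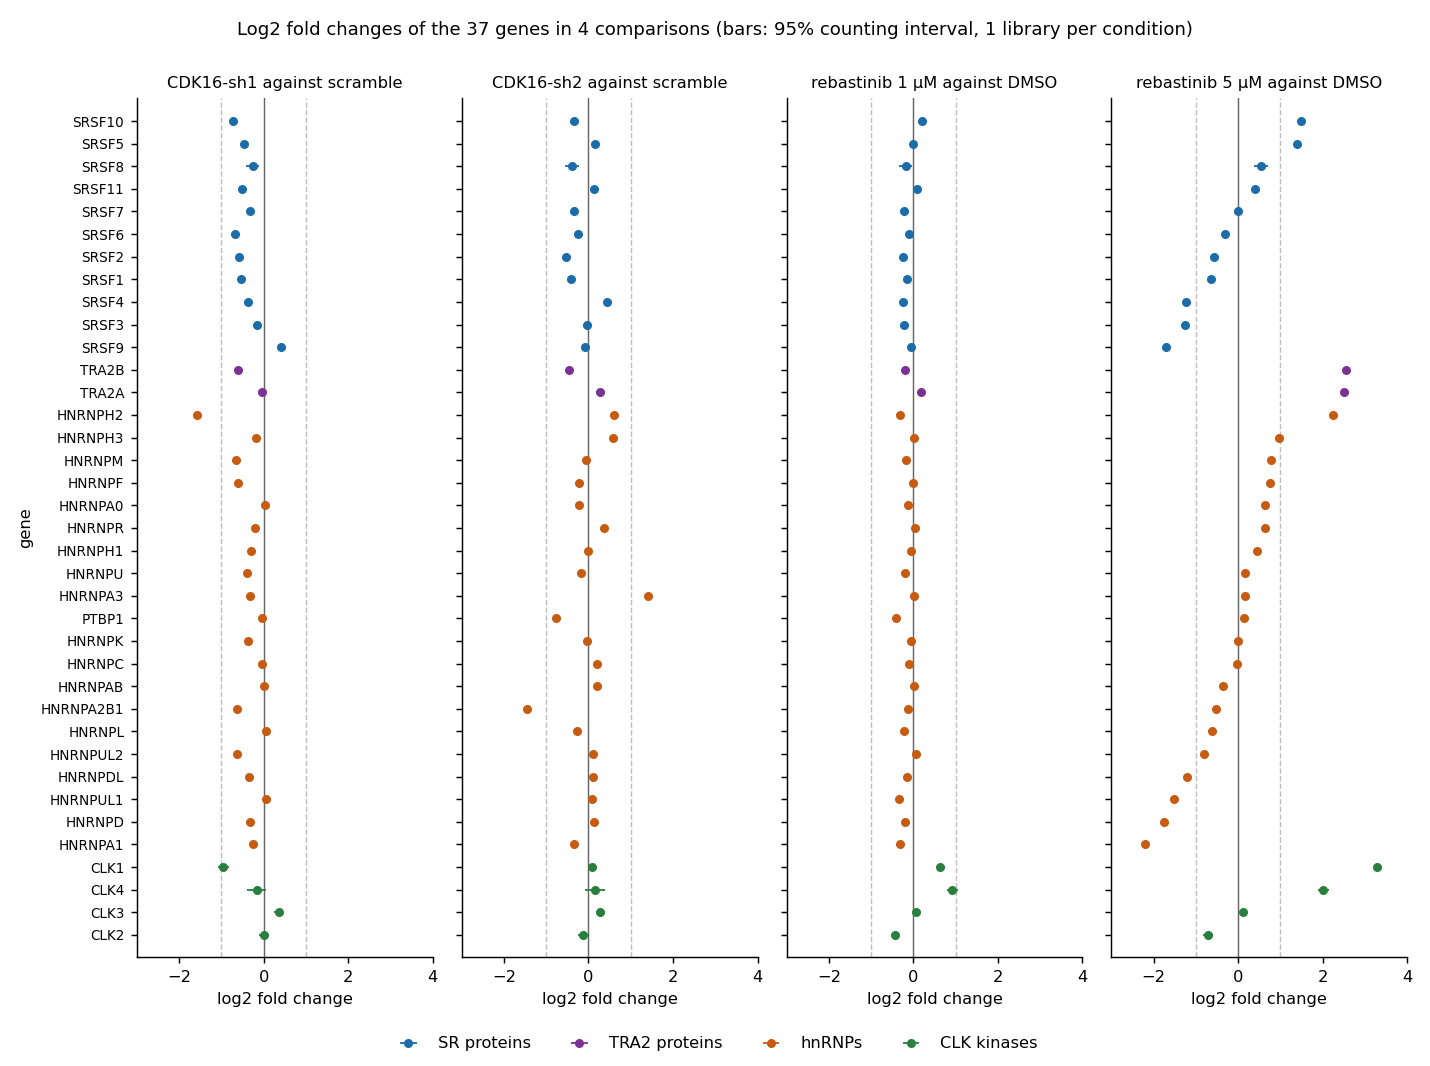
Log2 fold change of each of the 37 genes (rows, grouped by role and ordered by the change at 5 μM) in the 4 comparisons (panels). Points are single libraries against their own control, bars are 95% counting intervals, and dashed lines mark 2-fold. The genes lie within 2-fold at 1 μM and spread from -2.20 (HNRNPA1) to 3.28 (CLK1) at 5 μM.

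The 4 CLK kinases are also known as LAMMER kinases, after a short motif of the kinase domain, of which CLK3 carries a variant. The stretch of the coding sequence for it is shown from GENCODE 29 transcripts on GRCh38, since it shows how these 4 paralogs can be told apart by reads. Capitals mark the 12 of 30 positions at which the 4 genes are not all alike. CLK2 differs from CLK1 at 5 positions, CLK4 at 8 and CLK3 at 9.
CLK1: gagcaTTtAgCAatgatggaAAGGatTCtT
CLK2: gagcaTCtAgCCatgatggaAAGGatCTtG
CLK3: gagcaCCtGgTGatgatggaGAAGatCCtA
CLK4: gagcaCCtGgCAatgatggaACGAatATtA

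CLK1 (chr2:200853009-200864744, minus strand) had 1086 counts in the DMSO library, 1718 at 1 μM and 4899 at 5 μM Reb. It was above the control at both doses. The log2 fold changes were 0.64 (95% counting interval 0.53 to 0.75) and 3.28 (3.19 to 3.38), and the second is a 9.71-fold higher level with TMM (a log2 fold change of 2.59 under library totals). At 5 μM CLK1 ranked above 98.1% of all genes tested, and at 1 μM above 95.1%. Among the 37 genes it moved from rank 34 by RPKM with DMSO to rank 24 at 5 μM.

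CLK4 (chr5:178602664-178630615, minus strand) had 734, 1415 and 1372 counts under DMSO, 1 μM and 5 μM. The raw counts of the 2 doses were alike, in libraries of 49367654 and 37655548 counts. Its log2 fold changes were 0.92 (0.79 to 1.05) and 2.01 (1.88 to 2.14), the first being the highest of the 37 genes at 1 μM. CLK4 then ranked above 98.2% of all genes. Under library totals its log2 fold change at 5 μM was 1.32.

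CLK2 (chr1:155262868-155278491, minus strand), by contrast, had 2700, 2030 and 763 counts. It was below DMSO at both doses, with log2 fold changes of -0.43 (-0.52 to -0.35) and -0.71 (-0.83 to -0.60), the first being the lowest of the 37 at 1 μM. CLK3 (chr15:74598500-74645414, plus strand) had 3993, 4213 and 2007 counts and log2 fold changes of 0.05 (-0.01 to 0.12) and 0.12 (0.04 to 0.19). Under library totals the log2 fold changes at 5 μM were -1.40 for CLK2, past 2-fold, and -0.57 for CLK3. The sign of CLK3 at this dose thus depends on the scaling. The order of the 4 kinases by RPKM therefore changed. With DMSO it was CLK2 (14.6), CLK1 (4.18), CLK3 (3.88) and CLK4 (1.84), and at 5 μM it was CLK1 (25.2), CLK2 (5.52), CLK4 (4.60) and CLK3 (2.61). This order rests on the exon length of each gene, 20443 bases for CLK3 against 3670 for CLK2. By counts CLK3 was above CLK2 in each of these libraries.

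A ratio between 2 genes in the same library does not depend on how libraries are scaled. CLK1 stood at 0.286 times the RPKM of CLK2 with DMSO, 0.601 times at 1 μM and 4.56 times at 5 μM, so the ratio was 2.10 and 16.0 times that of the control. The ratio of CLK4 to CLK2 was 0.126, 0.323 and 0.833 in the same libraries. Both ratios were in the order of the dose. They are not free of the trend of the fold changes on GC content, which is 35.7% for CLK1 and 52.3% for CLK2. With that trend removed, the log2 fold changes at 5 μM were 2.67 for CLK1 and -0.53 for CLK2, against 3.28 and -0.71.

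With the hairpins the kinases did not follow this pattern. CLK1 had 1313 counts with scramble, 822 with CDK16-sh1 and 1299 with CDK16-sh2, for log2 fold changes of -0.95 (-1.08 to -0.83) and 0.09 (-0.02 to 0.20). The hairpins thus gave different values for CLK1, and without the trend of the fold changes on GC content that of CDK16-sh1 was -0.47. CLK2 had 1018, 1233 and 866 counts, CLK3 had 1148, 1785 and 1297, and CLK4 had 309, 335 and 320. CLK3 was the highest of the 4 with both hairpins, at 0.36 (0.25 to 0.47) and 0.28 (0.17 to 0.40), and the intervals of CLK2 and CLK4 included 0 with both.

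The promoter window of CLK1 is shown as the member with the highest change. It spans chr2:200864609-200864908 on the minus strand (RefSeq, GRCh38.p14), from 250 bases before a transcript start to 50 after it, and the capitals mark matches to GGGCGG or its complement, the GC box.
CLK1 promoter: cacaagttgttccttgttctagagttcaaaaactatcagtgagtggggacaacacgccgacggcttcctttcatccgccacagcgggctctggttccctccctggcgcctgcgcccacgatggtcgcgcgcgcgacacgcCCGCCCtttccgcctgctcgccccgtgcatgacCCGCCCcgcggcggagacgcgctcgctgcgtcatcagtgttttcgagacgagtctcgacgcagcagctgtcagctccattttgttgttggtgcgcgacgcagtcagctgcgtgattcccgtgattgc

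Both TRA2 genes were higher at 5 μM and near the control at 1 μM. TRA2B (chr3:185915906-185938136, minus strand) is an SR-like activator known for promoting exon inclusion in SMN2 transcripts, and TRA2A (chr7:23504780-23532041, minus strand) is its paralog. TRA2B had 9470 counts in the DMSO library, 8401 at 1 μM and 25772 at 5 μM, for log2 fold changes of -0.20 (-0.24 to -0.15) and 2.55 (2.52 to 2.59). TRA2A had 2441, 2825 and 6443 counts, for 0.19 (0.11 to 0.27) and 2.51 (2.44 to 2.58). At 5 μM the pair stood 5.87-fold and 5.69-fold above DMSO, at percentiles 95.8 and 95.6 of all genes, with log2 fold changes of 1.86 and 1.82 under library totals. The ratio of TRA2A to TRA2B by RPKM, 0.863 with DMSO and 0.837 at 5 μM, changed little beside this.

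In the knockdown experiment TRA2B had 5777, 4633 and 3892 counts with scramble, CDK16-sh1 and CDK16-sh2. It was lower with both hairpins and within 2-fold, at -0.59 (-0.65 to -0.54) and -0.46 (-0.52 to -0.40). TRA2A had 1504, 1783 and 1692 counts, and log2 fold changes of -0.03 (-0.13 to 0.07) and 0.28 (0.18 to 0.38). The promoter window of TRA2B (chr3:185937965-185938264, minus strand) held 1 GC box, in capitals.
TRA2B promoter: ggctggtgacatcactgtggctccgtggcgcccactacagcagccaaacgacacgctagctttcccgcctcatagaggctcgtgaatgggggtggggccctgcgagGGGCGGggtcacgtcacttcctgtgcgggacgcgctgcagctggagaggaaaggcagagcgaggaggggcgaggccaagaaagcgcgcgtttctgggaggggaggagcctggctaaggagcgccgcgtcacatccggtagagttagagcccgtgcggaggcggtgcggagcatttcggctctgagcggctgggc

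Of the 11 SR proteins, 2 were at least 2-fold higher at 5 μM, 3 at least 2-fold lower and 6 within 2-fold, shares of 18.2% and 27.3% beside 23.6% and 27.2% of all genes. Under scaling by library totals 0 were higher and 6 lower, beside 1835 higher and 6792 lower of the 15655 genes tested. SRSF10, a splicing repressor when dephosphorylated, had 21758 counts in the DMSO library, 25474 at 1 μM and 28388 at 5 μM. SRSF5 had 12635, 12753 and 15410 counts. Their counts were in the order of the dose although the 5 μM library was the smallest of the 3. The log2 fold changes at 5 μM were 1.49 (1.47 to 1.52) for SRSF10 and 1.39 (1.36 to 1.43) for SRSF5, and both lay under 1 with scaling by library totals, at 0.80 and 0.70. At 1 μM SRSF10 was the highest SR protein at 0.20 (0.18 to 0.23), and SRSF5 was at -0.01.

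The SR proteins that were lower at 5 μM were SRSF9, SRSF3 and SRSF4. SRSF9 had 13509 counts in the DMSO library, 13116 at 1 μM and 1911 at 5 μM. SRSF3, a small SR protein that also takes part in export of messenger RNA, had 12393, 10759 and 2400. SRSF4, a large SR protein with a long arginine-serine domain, had 58850, 50373 and 11678. Each was close to DMSO at 1 μM and far below it at 5 μM. The log2 fold changes at 5 μM were -1.71 (-1.78 to -1.64), -1.26 (-1.32 to -1.20) and -1.22 (-1.25 to -1.20), and at 1 μM they were -0.07, -0.23 and -0.25, the last being the lowest of the SR proteins. The remaining 6, SRSF1, SRSF2, SRSF6, SRSF7, SRSF8 and SRSF11, lay between -0.64 (SRSF1) and 0.53 (SRSF8) at 5 μM.

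Within a library, SRSF10 had 1.22 times the RPKM of SRSF3 with DMSO, 1.64 times at 1 μM and 8.19 times at 5 μM. The ratio of SRSF5 to SRSF4 was 0.356, 0.420 and 2.19, so that the less abundant gene of this pair with DMSO was the more abundant at 5 μM. The RPKM values of the SR proteins summed to 645 with DMSO, 629 at 1 μM and 396 at 5 μM.

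With CDK16-sh1, 10 of 11 SR proteins were below scramble (8 with the trend on GC content removed), where 50.1% of all genes were, and none passed 2-fold. SRSF10 was the lowest, with 6751 counts with scramble, 4928 with CDK16-sh1 and 4922 with CDK16-sh2, for -0.73 (-0.78 to -0.68) and -0.35 (-0.40 to -0.30), the first being -0.35 without the GC trend. SRSF9 was the exception, with 6011, 9654 and 5231 counts, for 0.41 (0.36 to 0.45) and -0.09 (-0.15 to -0.04). SRSF2, which reads exonic enhancers and is mutated in myeloid neoplasms, had 4610, 3699 and 2937 counts, for -0.59 (-0.66 to -0.53) and -0.54 (-0.61 to -0.48), the second being the lowest of the SR proteins with CDK16-sh2. SRSF4 was the highest there, with 12189, 11505 and 15255 counts, for -0.36 (-0.40 to -0.32) and 0.43 (0.40 to 0.46). SRSF4 and SRSF9 thus differed in direction between the hairpins, and SRSF2 and SRSF10 did not. With CDK16-sh2, 8 of 11 were below scramble (6 with the trend on GC content removed), where 48.6% of all genes were.

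Over all 37 genes, 31 were below scramble with CDK16-sh1, where 50.1% of all genes tested were, and the median was -0.31 against -0.0018 for all genes. Across the 15163 genes with a known GC content, the fold change with CDK16-sh1 had a Pearson r of 0.44 with GC content, as a description across genes that share 2 libraries. Among the 37 genes r was 0.23. With the trend over all genes removed, 21 of the 37 were below scramble and their median was -0.044. With CDK16-sh2, 20 of 37 were below scramble (15 with the GC trend removed), where 48.6% of all genes tested were. The median was -0.026 (0.12 with the GC trend removed and -0.22 under scaling by library totals), against 0.018 for all genes.

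**Figure D2:**
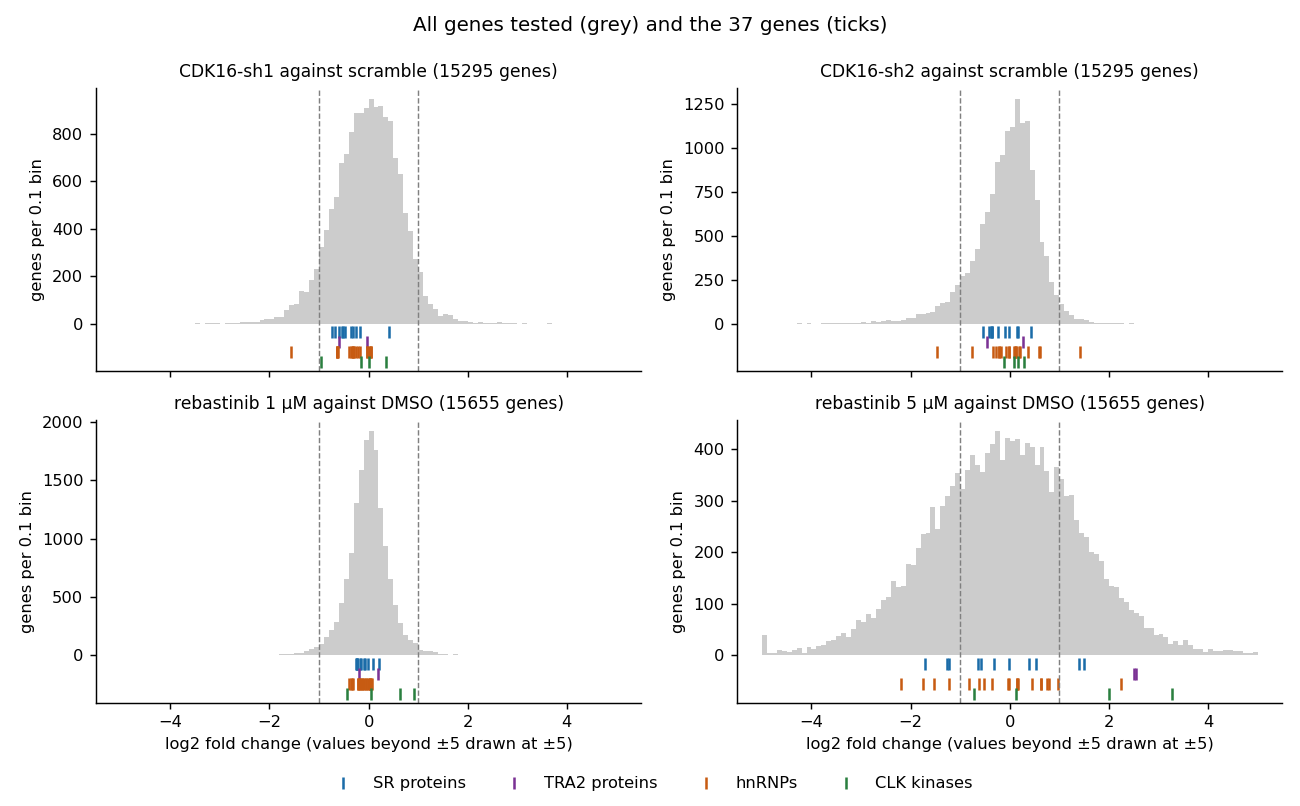
Distribution of the log2 fold change of all genes tested (grey, genes per bin of 0.1) in each comparison, with the 37 genes as coloured ticks by role and 2-fold as dashed lines. At 5 μM the whole distribution is wide and the 37 genes lie across it, with CLK1 and both TRA2 genes in its upper tail.

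Among the 20 hnRNPs, 4 were at least 2-fold lower at 5 μM, 1 was at least 2-fold higher and 15 were within 2-fold. These are shares of 20% and 5%, beside 27.2% lower and 23.6% higher of all genes. Under library totals 8 were lower and 1 higher, beside 6792 lower and 1835 higher of the 15655 genes tested. HNRNPA1 (chr12:54280193-54287088, plus strand) had 125443 counts in the DMSO library, 101654 at 1 μM and 12694 at 5 μM. It moved from rank 1 of the 37 by RPKM to rank 15. The log2 fold changes were -0.33 and -2.20 (-2.22 to -2.17), the second 4.58-fold lower. Copies of HNRNPA1 that are listed under names of their own, 46 in this table, had 3494 counts with DMSO and 1394 at 5 μM beside those of the gene, equal to 2.79% and 10.98% of its count.

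HNRNPD, also known as AUF1, binds AU-rich elements and marks such transcripts for decay, and HNRNPDL is its close relative. HNRNPD had 65373, 57527 and 9042 counts under DMSO, 1 μM and 5 μM, and HNRNPDL had 19390, 17692 and 3851. Both were slightly lower at 1 μM and far lower at 5 μM. Their log2 fold changes at 5 μM were -1.75 (-1.78 to -1.71) and -1.22 (-1.27 to -1.17). HNRNPUL1, a relative of the scaffold protein HNRNPU, had 27253, 21762 and 4373 counts, for -0.35 (-0.37 to -0.32) and -1.53 (-1.58 to -1.49). HNRNPUL2 was the highest hnRNP at 1 μM, with 21737, 23078 and 5720 counts, at 0.06 (0.04 to 0.09), and stood at -0.82 (-0.86 to -0.78) at 5 μM, just inside 2-fold. Under library totals HNRNPUL2 was past 2-fold lower at 5 μM, at -1.51. The 1 annotated HNRNPUL2-BSCL2 readthrough gene shares 44.5% of its exon bases and had 21088, 22381 and 5565 counts, so that the reads of the 2 entries cannot be told apart.

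HNRNPH2, on chromosome X (chrX:101408295-101414133, plus strand), binds runs of G and was the hnRNP that was higher. It had 4418 counts in the DMSO library, 3617 at 1 μM and 9659 at 5 μM, below the control at 1 μM and above it at 5 μM. The log2 fold changes were -0.31 (-0.38 to -0.25) and 2.24 (2.19 to 2.29). Its close paralog HNRNPH1 had 54107, 52954 and 34026 counts, with 0.44 at 5 μM, and the ratio of HNRNPH2 to HNRNPH1 by RPKM was 0.348, 0.291 and 1.21. HNRNPH3 lay just inside 2-fold at 0.97 (0.95 to 0.99). A readthrough entry, RPL36A-HNRNPH2, shares 16.3% of the exon bases of HNRNPH2 and had 14443, 14074 and 19520 counts, so part of its reads may belong to HNRNPH2.

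The promoter windows of HNRNPD (chr4:82373942-82374241, minus strand) and HNRNPH2 (chrX:101407972-101408271, plus strand) are shown for the contrast between a lower and a higher gene. Capitals mark matches on either strand to the GC box GGGCGG, the CCAAT box, TATAAA and the ETS motif CCGGAAG, each searched alone so that matches may overlap. HNRNPD held 1 GC box, 1 TATAAA and 1 ETS match, and HNRNPH2 held 3 CCAAT boxes and 1 GC box.
HNRNPD promoter: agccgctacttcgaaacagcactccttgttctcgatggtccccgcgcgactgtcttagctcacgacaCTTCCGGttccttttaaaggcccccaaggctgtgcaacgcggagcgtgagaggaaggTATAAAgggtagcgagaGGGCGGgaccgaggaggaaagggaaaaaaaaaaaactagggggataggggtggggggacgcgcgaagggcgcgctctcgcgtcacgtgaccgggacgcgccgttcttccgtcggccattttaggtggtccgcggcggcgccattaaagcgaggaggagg
HNRNPH2 promoter: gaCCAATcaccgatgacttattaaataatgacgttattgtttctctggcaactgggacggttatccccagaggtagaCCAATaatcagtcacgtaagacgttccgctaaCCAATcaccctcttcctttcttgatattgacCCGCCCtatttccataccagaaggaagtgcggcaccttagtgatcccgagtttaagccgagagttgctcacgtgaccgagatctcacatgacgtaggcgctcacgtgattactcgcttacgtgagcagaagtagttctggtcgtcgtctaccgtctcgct

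Of the 37 genes, 34 were matched to such a window. CCAAT was found in 17 of 34, against 34.6% of all 35116 windows, GGGCGG in 22 (45.0% of all), TATAAA in 4 (11.5%), CCGGAAG in 4 (10.3%) and the cAMP response element TGACGTCA in 0 (1.85%). These letters are a description of the windows and were not tied to the counts.

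With TMM the other hnRNPs were less affected at 5 μM. HNRNPM, HNRNPF, HNRNPA0, HNRNPR, HNRNPU, HNRNPA3, PTBP1, HNRNPK, HNRNPC, HNRNPAB, HNRNPA2B1 and HNRNPL lay between -0.62 (HNRNPL) and 0.78 (HNRNPM). Under library totals HNRNPL (-1.31), HNRNPA2B1 (-1.21) and HNRNPAB (-1.06) were past 2-fold lower. HNRNPA0, HNRNPR, HNRNPU, HNRNPA3 and PTBP1 changed sign, to between -0.55 (PTBP1) and -0.05 (HNRNPA0). HNRNPM and HNRNPF stayed above 0, at 0.09 and 0.06. PTBP1, a repressor that binds pyrimidine tracts, was the lowest hnRNP at 1 μM, with 9567, 7372 and 4882 counts for -0.40 (-0.44 to -0.36) and 0.14 (0.09 to 0.19). HNRNPM, with 256 RPKM with DMSO and 273 at 5 μM, was the most abundant of the 37 genes at 5 μM. The hnRNPs together had a summed 2847 RPKM with DMSO, 2683 at 1 μM and 1674 at 5 μM, and the 37 genes together took 2.25%, 2.13% and 1.42% of all counts.

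**Figure D3:**
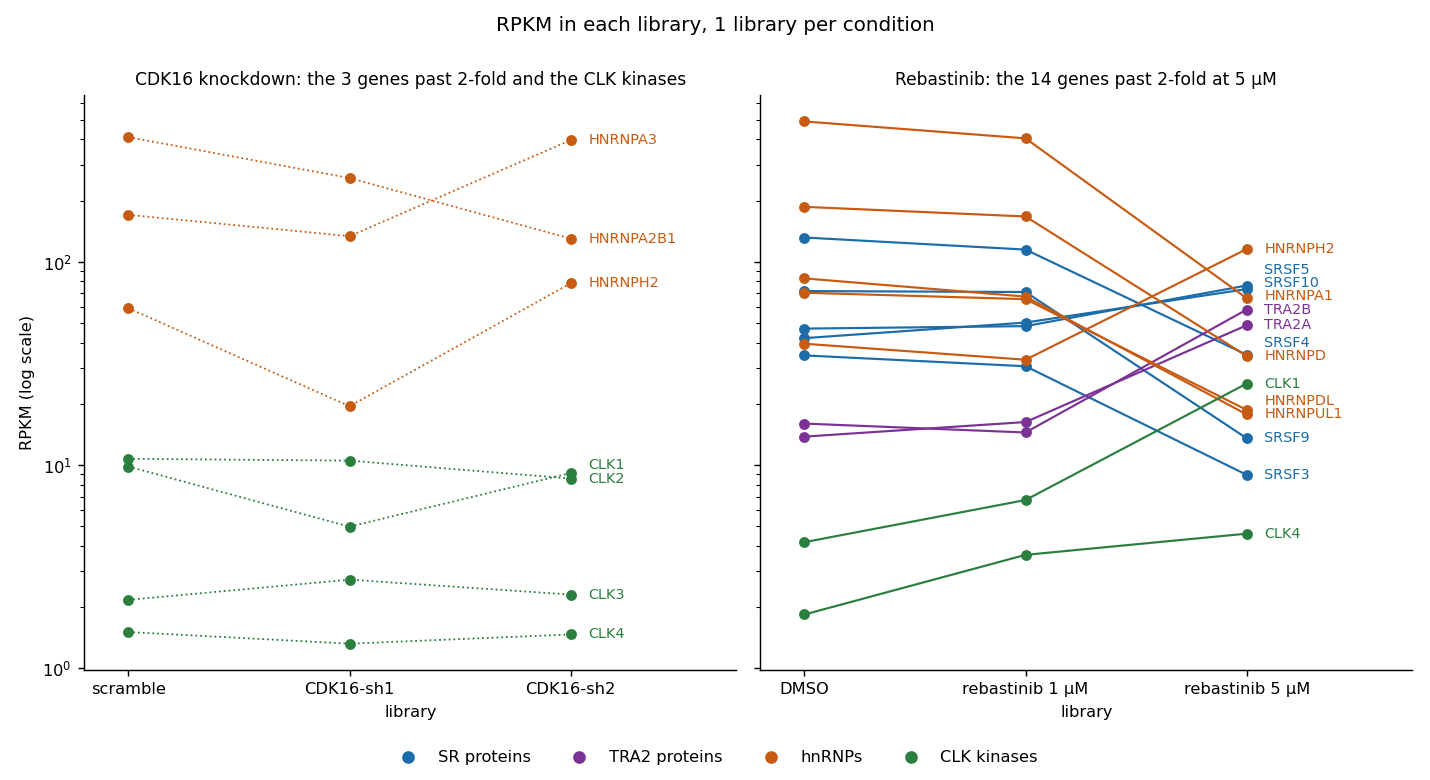
RPKM (log scale) in each library of the 3 members past 2-fold with a hairpin and the 4 CLK kinases (left) and of the 14 members past 2-fold at 5 μM (right), coloured by role, with 1 library per point. Dotted lines join points of a gene across hairpins and solid lines across doses. At 5 μM HNRNPA1 comes down to the level of SRSF5 and SRSF10, and CLK1 rises above SRSF9 and SRSF3.

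With the hairpins, 3 hnRNPs passed 2-fold, each with 1 hairpin. HNRNPH2 had 3391 counts with scramble, 1383 with CDK16-sh1 and 4786 with CDK16-sh2. It was below scramble with CDK16-sh1 and above it with CDK16-sh2, at -1.57 (-1.66 to -1.48) and 0.60 (0.54 to 0.67). HNRNPH1 had 25243, 24852 and 23149 counts, so the ratio of HNRNPH2 to HNRNPH1 was 0.573, 0.237 and 0.882. The readthrough entry RPL36A-HNRNPH2 had 8094, 11587 and 15367 counts.

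HNRNPA2B1 (chr7:26189927-26201529, minus strand) had 79877, 62162 and 26948 counts with scramble, CDK16-sh1 and CDK16-sh2. It was lower with both hairpins, at -0.64 (-0.65 to -0.62) and -1.46 (-1.48 to -1.44). HNRNPA3 (chr2:177212563-177223958, plus strand), of the same A/B subfamily, had 26499, 25742 and 65736 counts, at -0.32 (-0.34 to -0.29) and 1.42 (1.397 to 1.44). With CDK16-sh2 HNRNPA3 thus ranked above 99.5% of all genes and HNRNPA2B1 above 3.03%. The ratio of HNRNPA3 to HNRNPA2B1 by RPKM was 0.415 with scramble, 0.518 with CDK16-sh1 and 3.05 with CDK16-sh2, a change of 7.35 times with the second hairpin. In the Reb experiment the same ratio was 0.272, 0.301 and 0.433. The 16 copies of HNRNPA3 listed under names of their own had separate counts equal to between 2.43% and 3.45% of that of the gene in the knockdown libraries.

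The other 17 hnRNPs were within 2-fold with both hairpins. HNRNPUL1 was the highest with CDK16-sh1, with 19283, 24173 and 18948 counts for 0.05 (0.02 to 0.08) and 0.08 (0.05 to 0.11). PTBP1 was next to HNRNPA2B1 at the lower end with CDK16-sh2, with 8940, 10544 and 4906 counts for -0.04 (-0.08 to 0.00) and -0.76 (-0.81 to -0.71).

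**Figure D4:**
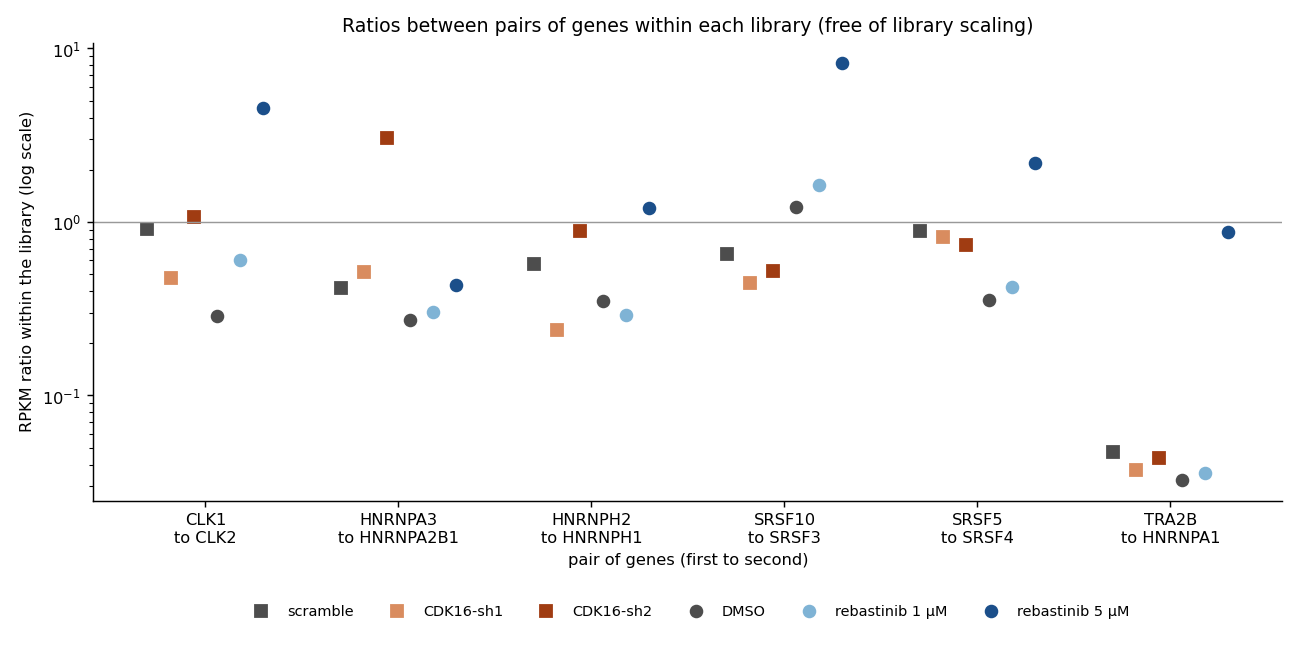
RPKM ratio between pairs of the genes within each library (log scale), squares for the knockdown experiment and circles for Reb. CLK1 to CLK2, SRSF10 to SRSF3 and TRA2B to HNRNPA1 are highest at 5 μM, and HNRNPA3 to HNRNPA2B1 is highest with CDK16-sh2.

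The contrast between higher and lower genes at 5 μM was largest for TRA2B and HNRNPA1 among the pairs drawn. TRA2B had 0.0327 times the RPKM of HNRNPA1 with DMSO, 0.0358 times at 1 μM and 0.879 times at 5 μM. The pairs were not set by a stated rule, so the ratios only describe the pairs drawn. The median of the 37 genes at 5 μM was 0.12 with TMM and -0.57 with library totals, so its sign changes with the scaling, against -0.070 and -0.75 for all genes.

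For a test, the 2 treated libraries of an experiment had to form 1 group against 1 control, so that the difference between hairpins or doses counts as the spread. With edgeR's quasi-likelihood test and Benjamini-Hochberg adjustment, 0 of the 37 genes were called for the hairpins (0% of all 15295 genes) and 0 for the doses (0.0767% of 15655). The adjusted p-values of the members were 1.00 in both, 0 and 0 of the members had an unadjusted p under 0.05, and DESeq2 called 0 and 0, with 0 and 1 under 0.05 unadjusted. Another fit was linear in log2 of the dose in μM plus 1, for which the same 3 libraries leave 1 degree of freedom. It called 7 members, where it called 24.5% of all genes. They were CLK1 (adjusted p of edgeR 3.39e-05), TRA2A (0.000977), TRA2B (0.00164), HNRNPH2 (0.00299) and CLK4 (0.010) on the higher side and HNRNPA1 (0.0302) and SRSF9 (0.0481) on the lower.

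Many of the 37 genes have an annotated transcript that does not give a full protein. In GENCODE 29, 29 of 37 had a transcript marked for nonsense-mediated decay, against 35.8% of the genes tested in the knockdown experiment and 35.4% in the Reb experiment, and 27 had a retained intron transcript, against 47.4% and 46.9%. CLK1 has 15 annotated transcripts, of which 8 retain an intron, 2 are marked for decay and 4 are coding. TRA2B has 16, of which 8 retain an intron, 1 is marked for decay and 5 are coding. HNRNPH2 has 1, and it is coding. The deposited counts are per gene, so a higher count of CLK1 or TRA2B does not show which of these transcripts was more abundant.

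Lists of other splicing genes show the surroundings of the 37 at 5 μM. Of 19 SR-related proteins tested, 7 were at least 2-fold higher and 1 lower. Those with the largest values, picked after their values were seen, were ARGLU1 at 3.55, BCLAF1 at 2.65, RSRP1 at 2.60 and LUC7L3 at 2.30, all nuclear proteins with regions rich in arginine, and RSRC1 was the lower one at -1.38. Of 21 other alternative splicing regulators 6 were higher, CELF1 the most at 2.33, and 2 lower, RBM5 the most at -2.10. Of 16 other hnRNP-type proteins 4 were higher and 1 lower, RALY at 2.14 and RBMX at -1.59 being the farthest. In these 3 lists the higher genes made up 36.8%, 28.6% and 25%, against 23.6% of all genes, and the lower genes 5.26%, 9.52% and 6.25%, against 27.2%, and no test was run on these shares. Under scaling by library totals the counts were 5 higher and 2 lower, 2 higher and 2 lower, and 2 higher and 5 lower in the same order of lists. Beside these, 1835 of all 15655 genes tested were higher and 6792 lower.

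Other kinases of SR proteins went in different directions at 5 μM, with 3 of 11 higher and 4 lower. SRPK1, the main cytoplasmic kinase of SR proteins, had 14118, 14645 and 2920 counts under DMSO, 1 μM and 5 μM, a log2 fold change of -1.17 at 5 μM, while its paralog SRPK2 had 3417, 3906 and 5341 counts, at 1.75. DYRK1A was at 2.58 and CDK12 at -2.05. The core spliceosome had 13 of 46 genes higher and 14 lower, and the factors of nonsense-mediated decay had 3 of 15 higher and 5 lower, close to the 23.6% and 27.2% of all genes. Under scaling by library totals 3 of the kinases were higher and 5 lower. The core spliceosome then had 3 higher and 22 lower, and the decay factors 1 and 6. Of all 15655 genes tested, 1835 were higher and 6792 lower under this scaling. At 1 μM none of the genes in these 6 lists passed 2-fold. With the hairpins, between 0 and 2 genes of each list passed on either side.

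**Figure D5:**
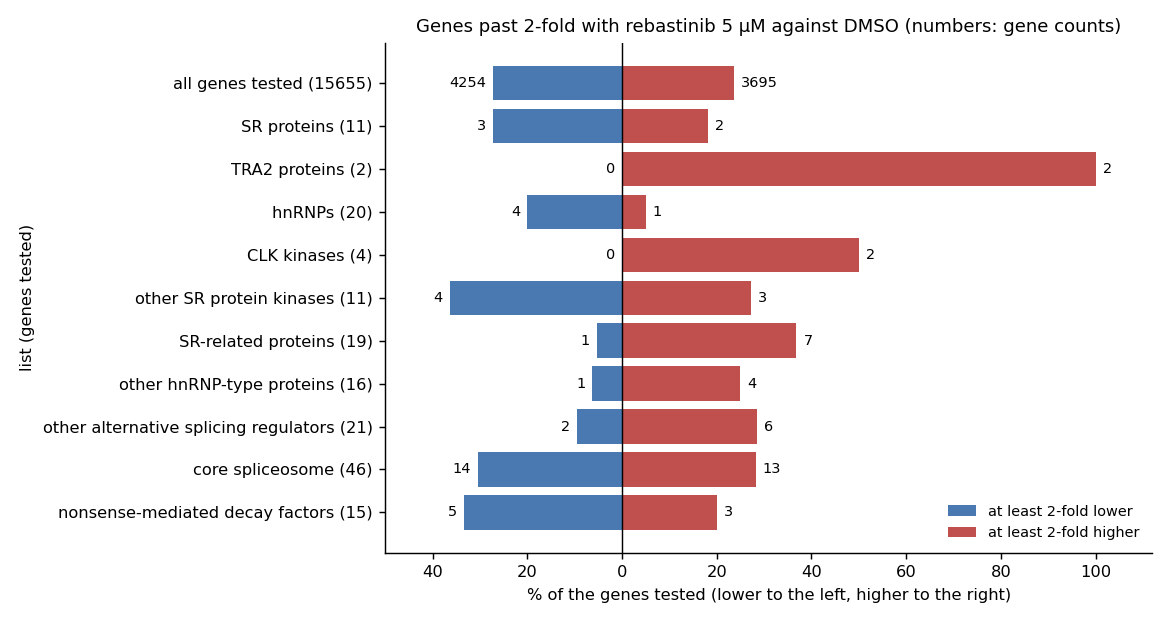
Share of the genes tested in each list that were at least 2-fold lower (left, blue) or higher (right, red) at 5 μM Reb against DMSO, with the gene counts beside the bars. The SR-related proteins stand at 7 higher and 1 lower, and the core spliceosome at 13 and 14.

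Some of the 37 share exon bases with another listed gene. SRSF9 shares 46.2% of them with GATC on the other strand, SRSF2 shares 36.7% with MFSD11 and HNRNPU shares 25.8% with COX20. SRSF1 shares 23.1% in all, with RP11-159D12.5 on its own strand and RP11-159D12.6 on the other. GATC had 2232, 2217 and 463 counts under DMSO, 1 μM and 5 μM, lower at 5 μM like SRSF9. The libraries were stranded, but whether the counting used the strand is not given in the sources used here. The values of these genes, SRSF1 included, are uncertain to that extent.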

How the data were processed

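The 37 genes and the lists were chosen with earlier results of these data known. RNA was sequenced from 6 libraries, 1 per condition. The authors prepared stranded mRNA libraries. The submitters' processing notes name Trimmomatic, featureCounts, Subread 1.5.1 and GRCh38, while the aligner and the annotation are not given in the sources used here. The deposited count tables hold whole-number reads per gene symbol, without normalization, and in the deposited RPKM tables these counts are divided by gene length and library total. Exon ends were compared with GENCODE 29.

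Counts were scaled by TMM in edgeR 4.0.16 (R 4.3.3) computed on genes averaging 1 CPM or more, and log2 fold changes used a prior count of 2. Intervals are 95% exact Clopper-Pearson intervals of 2 counts. They cover counting error only and take the library scaling as known. Without molecular identifiers reads of 1 molecule may be counted repeatedly, so the intervals may be too narrow even for that error. The joint test was edgeR's quasi-likelihood test (adjusted p-value of at most 0.05 and at least 2-fold). GC trends were removed by loess with a span of 0.3.

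Counts in each library are given for members past 2-fold, for the CLK and TRA2 genes, and for the highest and lowest member of each role. Genes of the 6 other splicing lists were to be named when both treated libraries passed 2-fold on 1 side. None did, so those named were picked after their values were seen. The alternatives were DESeq2 1.42.0 size factors, library totals, the authors' RPKM with 0.1 added, no filter, TMM without mitochondrial genes, a prior count of 0.5, a 1.5-fold threshold and removal of the GC trend.

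Values of some genes in these lists are not reported here.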

Additional observations from a re-analysis of the deposited data

How the results depend on the processing

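The members gave 148 log2 fold changes (37 genes in 4 comparisons), and none of those past 2-fold changed sign under any alternative that was run. Under DESeq2 size factors 147 of the 148 stayed on their side of the 2-fold threshold, as did 147 with the GC trend removed, 147 with no filter, 138 under library totals and 138 under the authors' RPKM. All 148 stayed with a prior count of 0.5 and with TMM without mitochondrial genes. Under library totals and under the authors' RPKM, 15 members were at least 2-fold lower at 5 μM in place of 7. The median of the members at 5 μM, 0.12, was -0.57 under library totals, -0.56 under the authors' RPKM, -0.087 with no filter and -0.30 with the GC trend removed. That of CDK16-sh2, -0.026, was -0.22 under library totals and -0.22 under RPKM, and 0.12 without the GC trend, and that of CDK16-sh1, -0.31, was -0.044 without it. A 1.5-fold threshold takes in more genes by construction. With it, 10 members were lower with CDK16-sh1, and 2 were lower and 2 higher with CDK16-sh2. At 1 μM 2 members were higher, and at 5 μM 11 were lower and 12 higher. The share of all genes past 1.5-fold was not computed, so these counts have no background to stand beside. With log2 of the dose in μM plus 1 as a linear term, 7 members were called in place of 0. Apart from the 1.5-fold threshold, the cause of these movements was not tested. The joint test called 0 members under library totals, no filter and DESeq2 as well. No paired analysis was possible because each condition had 1 library, and no library could be left out for the same reason. Depth did not limit the members, since the lowest count of any was 309 (CLK4 with scramble), but differences between cultures have no estimate.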
